A study of Komagataella phaffii with 72 samples.

Results

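The production of rhG-CSF was compared with the production of rhGH in 1 strain of the methylotrophic yeast *Komagataella phaffii*, NRRL Y-48124. By strain, product and clone in the sample labels, 18 of the 72 cultures of the series belonged to this comparison. Of these, 9 cultures came from rG-CSF clones 13, 14 and 16, and 9 came from rhGH clones 11, 12 and 13, with 3 cultures of each clone. The other 54 cultures were of strains X-33, Y-11430 and GS115 and carried the same pair of products. Per the paper, Y-48124 is a banked strain of X-33, and both derive from GS115, itself a mutant of Y-11430.

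All 18 cultures had the Y-48124 background, a collection strain with a missense change in RCR2, whose product acts in the vacuolar sorting of membrane proteins, a substitution in the histidine synthesis gene HIS4, and further mutations that it shares with GS115. The rG-CSF cultures carried the gene for recombinant human granulocyte colony-stimulating factor and the rhGH cultures the gene for recombinant human growth hormone, in both cases behind the methanol-induced AOX1 promoter of a commercial vector that integrates into the genome. Each clone is a separate transformant, so its 3 cultures share the same integrated cassettes and copy number, which the labels do not give. Every culture had 24 hr in glycerol medium (4%, v/v) to build biomass, followed by 24 hr in methanol medium (1.5%, v/v), and was then sampled for 3′ digital gene expression, in which reads come from the end of each transcript. No culture of untransformed Y-48124 was among these samples, so a difference says how the producers of the 2 proteins differ and not which of them departs from the parent strain.

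*K. phaffii* grows on methanol by oxidizing it to formaldehyde in peroxisomes, and the promoter of its main alcohol oxidase gene is repressed by glycerol and strongly induced by methanol. Proteins made from this promoter with a secretion leader enter the endoplasmic reticulum, where they fold and form disulfide bonds before they pass through the Golgi to the medium. rhG-CSF is a cytokine that acts on neutrophil precursors, and rhGH is a pituitary hormone. Both are small helical proteins.

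The 3 transgene rows were left out of the gene comparison and served to check the labels. The rhG-CSF transgene was read at 359 to 7615 CPM (counts per 1000000 gene counts, median 1946) in rG-CSF cultures, against 39.0 to 112 CPM (median 48.1) in rhGH cultures. The rhGH transgene was read at 18.3 to 56.0 CPM (median 45.6) in rG-CSF cultures, against 1394 to 2758 CPM (median 2340) in rhGH cultures. Neither transgene overlapped between the groups, so each library matched its labelled product. The reads of the other product's transgene were low but above 0 in every culture, and their source was not tested.

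The rG-CSF clones were unequal as producers of transgene mRNA. Per the paper, the clones examined in each strain covered low up to high transgene copy numbers, so unequal levels may reflect how clones were chosen. Clone 13 averaged 7101 ± 450.5 CPM, clone 14 averaged 589 ± 294 CPM and clone 16 averaged 1946 ± 209 CPM (SD, n = 3 cultures each). The rhGH clones were closer together, at 2563 ± 169 CPM for clone 11, 1568 ± 153 CPM for clone 12 and 2406 ± 242 CPM for clone 13 (SD, n = 3 cultures each). The marker transgene was likewise highest in clone 13 among rG-CSF clones, at 121 ± 9.99 CPM. It had 15.1 ± 5.34 CPM in clone 14 and 18.6 ± 7.65 CPM in clone 16 (SD, n = 3 cultures each). Cultures of clones 14 and 16 overlapped, so the order of these clones is not resolved for the marker. The marker means were 59.3, 30.6 and 59.1 CPM in rhGH clones 11, 12 and 13. Transgene level therefore varied among clones of 1 product as well as between products, and its part in the differences below was not tested.

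**Figure D1:**
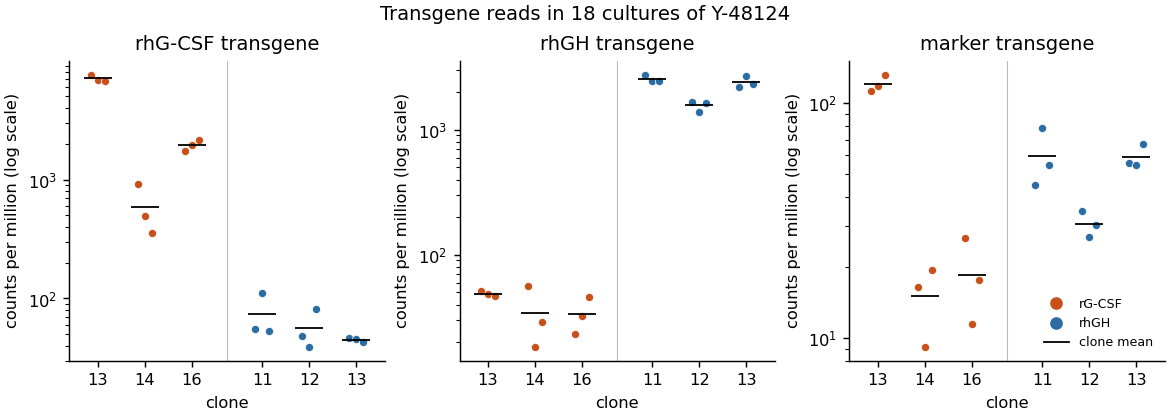
CPM (log scale) of the rhG-CSF, rhGH and marker transgenes in each of the 18 cultures of Y-48124, by clone, with rG-CSF clones on the left and rhGH clones on the right of each panel. Points are cultures and black lines are clone means. rG-CSF clones average 7101, 589 and 1946 CPM for their transgene, while the rhGH transgene averages 2563, 1568 and 2406 CPM in rhGH clones.

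Libraries held 1088384 to 1589874 gene counts (median 1461960) in rG-CSF cultures and 438586 to 1410622 (median 881619) in rhGH cultures. Between 4991 and 5040 of the 5120 genes had a count in rG-CSF cultures, and between 4863 and 5009 in rhGH cultures. The 100 most abundant genes took 44.6 to 48.5% of the counts in rG-CSF cultures and 47.8 to 50.3% in rhGH cultures. Over clones, each of these 3 measures separated the products, with p = 0.1 in a two-sided exact permutation test of 3 clones against 3, which is the smallest p that this design allows. Depth thus moved with product, and no label gives a batch, so a batch that followed product cannot be told apart from it. Cultures of the same clone differed by more than counting noise in every pair, with a chi-square per degree of freedom of 2.31 to 4.96 in rG-CSF clones and 2.58 to 14.0 in rhGH clones, so no library was a copy of another.

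The 18 transcriptomes separated by product. On the first principal component of the 3134 genes with a mean log2 CPM over 5, which held 28.9% of the variance, rG-CSF cultures scored 4.93 to 14.5 and rhGH cultures scored -15.7 to -3.70. After every culture was thinned to 438586 counts, the total of the shallowest one, the scores were 5.17 to 14.9 in rG-CSF cultures and -16.0 to -4.24 in rhGH cultures. The groups did not overlap at equal depth either. Both sets of scores used CPM without TMM factors, which scale libraries for their composition. These factors did not overlap between products either, at 0.997 to 1.11 in rG-CSF cultures and 0.916 to 0.994 in rhGH cultures. Thinning equalizes depth only, and the part of this scaling in the first component was not tested. On the second component, which held 12.8% of the variance, rhGH culture 13C scored 17.9 and rhGH culture 12B scored 10.5, the highest of the 18 cultures, with rG-CSF culture 13C next at 8.43. The median SD of a gene across clone means was 0.155 on the log2(CPM + 1) scale among rG-CSF clones and 0.152 among rhGH clones. Between cultures of a clone the median SD was 0.182 for rG-CSF and 0.263 for rhGH.

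**Figure D2:**
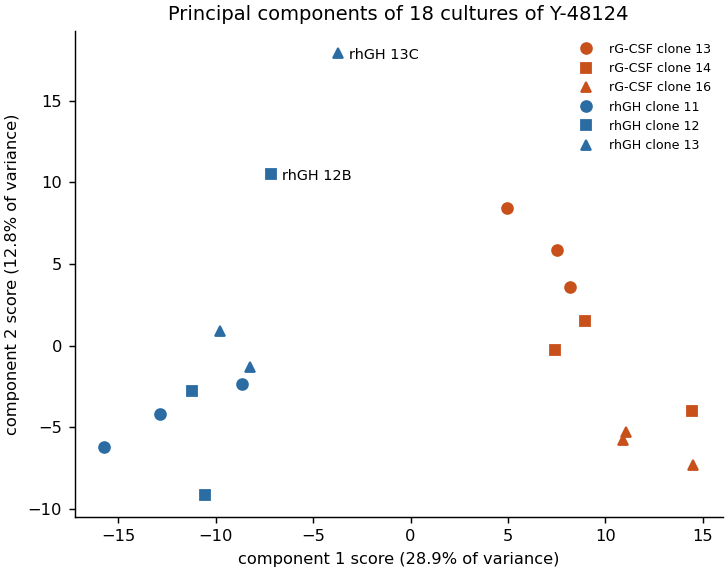
Scores of the 18 cultures of Y-48124 on the first component (28.9% of the variance) and the second component (12.8%) of log2(CPM + 1) over 3134 genes, coloured by product and shaped by clone. All rG-CSF cultures lie at 4.93 or more on the first component and all rhGH cultures at -3.70 or less, and rhGH 13C (17.9) and 12B (10.5) have the highest scores on the second.

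To find which genes differed between the producers, the counts of the 3 cultures of each clone were summed, and 3 rG-CSF clones were compared with 3 rhGH clones by edgeR's quasi-likelihood test. Of 4917 genes tested, 201 (4.09%) were called at an adjusted p under 0.05. Of these, 106 (2.16% of the genes tested) rose and 95 (1.93%) fell in rG-CSF clones relative to rhGH clones. The median log2 fold change, rG-CSF over rhGH, was 0.83 for genes that rose and -0.82 for genes that fell, beside 0.02 for all genes tested. In 63 called genes the change exceeded 1 on the log2 scale, 42 of them higher and 21 lower in rG-CSF clones. The product difference was thus moderate in most called genes, and 86.1% of all genes tested had a fitted change under 0.5 in size.

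The count of called genes depended on which clones and strains entered the fit. edgeR called 285 genes without rG-CSF clone 13, 104 without rG-CSF clone 14, 108 without rG-CSF clone 16, 40 without rhGH clone 11, 63 without rhGH clone 12 and 131 without rhGH clone 13. A fit of all 24 clones of the 4 strains, which estimated 1 common spread, called 0 genes, with 375 at an unadjusted p under 0.05 and a smallest adjusted p of 0.154. The common biological coefficient of variation, a measure of the spread between clones, was 0.246 in that fit and 0.148 among the Y-48124 clones alone. When limma was applied to the log2(TPM + 1) values, 175 genes were called and 76.0% of them were higher in rG-CSF clones, against 52.7% in the count test. The median change over all genes was 0.14 on that scale, and this alternative differs from the count test in both the test and the scale.

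The called genes were spread unevenly over expression levels. With the genes tested divided by mean level into 4 classes of equal size, in the lowest class 13 of 1230 were called (1.06%), then 33 of 1229 (2.69%) and 49 of 1229 (3.99%), and 106 of 1229 (8.62%) in the most abundant class. The direction turned with level: called genes were 9 higher and 4 lower in the lowest class, 24 and 9 in the second, 33 and 16 in the third, and 40 higher and 66 lower in rG-CSF clones in the most abundant class. After thinning to equal depth the most abundant class held 39 called genes that were higher and 73 that were lower, and the lowest held 8 and 4. Tests on abundant genes rest on more reads and call smaller changes, so the shares describe calls rather than sizes of change.

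Among the 149 genes with a mean log2 CPM above 10, 18 were called (12.1%), of which 3 were higher and 15 were lower in rG-CSF clones. Their log2 fold changes lay between -1.35 and 1.57. The most abundant of the called genes had 9504, 9051 and 6495 CPM in rG-CSF clones 13, 14 and 16, against 15702, 14284 and 17598 CPM in rhGH clones 11, 12 and 13. Its groups did not overlap, and its log2 fold change was -1.02 ± 0.18 (SE, edgeR adjusted p = 0.0118). Together, the 95 genes that fell took 5.70, 5.06 and 4.42% of the gene counts in rG-CSF clones 13, 14 and 16, against 9.40, 8.47 and 9.01% in rhGH clones 11, 12 and 13. The 106 genes that rose took 2.66, 2.79 and 2.69% in the rG-CSF clones, against 1.35, 1.32 and 1.38% in the rhGH clones. These sums describe genes that the same clones chose.

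**Figure D3:**
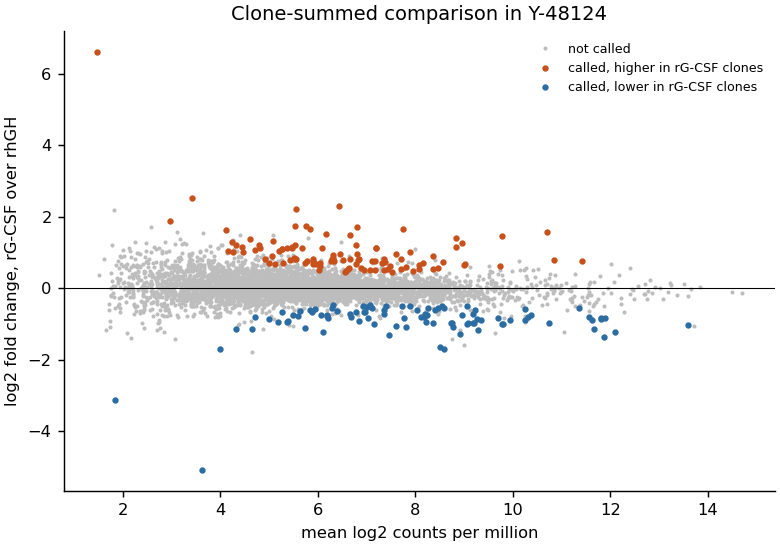
Log2 fold change, rG-CSF over rhGH, against mean log2 CPM for the 4917 genes tested on clone sums of Y-48124. Grey points were not called, orange points are the 106 genes called higher and blue points the 95 genes called lower in rG-CSF clones. Most called genes above a mean log2 CPM of 10 lie below the zero line (15 of 18).

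Without summing, 110 of the 4917 genes (2.24%) had all 9 rG-CSF cultures on 1 side of all 9 rhGH cultures, and 73 of the 201 called genes were among them, 46 higher and 27 lower in rG-CSF. The other 37 genes with separated cultures were not called. At the level of clone means, 200 of the 201 called genes did not overlap between products, beside 1235 of all 4917 genes tested (25.1%). Both counts rest on the contrast that made the calls and so only describe them.

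rG-CSF clone 13, which had the most transgene mRNA, stood in different places among the genes that fell and those that rose. Among the 95 genes that fell, clone 13 was the rG-CSF clone nearest to the rhGH clones in 63 (66.3%), clone 14 in 9 (9.47%) and clone 16 in 23 (24.2%). Over all 2325 tested genes with a fold change below 0, clone 13 was the nearest in 757 (32.6%), clone 14 in 562 (24.2%) and clone 16 in 1006 (43.3%). Among the 106 genes that rose, clone 13 was nearest in 38 (35.8%), clone 14 in 45 (42.5%) and clone 16 in 23 (21.7%), close to the 43.2, 37.2 and 19.7% of clones 13, 14 and 16 over all 2592 tested genes with a fold change above 0. Clone 13 was the farthest in 48 of the genes that rose (45.3%, beside 27.1% over those 2592 genes). The lower genes of clone 13 therefore lay closer to rhGH levels than those of clones 14 and 16 did. The places were taken from CPM without TMM factors. On single libraries these factors were 1.08 to 1.11 in clone 16 and 0.997 to 1.06 in clones 13 and 14. The part of this scaling in the shares was not tested. With 3 rG-CSF clones, a relation to transgene level was not tested.

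The gene identifiers of the files carry no names, and the *K. phaffii* gene table used here lists other locus tags (0 matches). For this reason the methanol utilization, peroxisome, folding and cell wall lists could not be counted. Named genes are 4 identifiers chosen by rule, the 2 that rose and the 2 that fell with the smallest p among genes whose cultures did not overlap, and 8 genes that a supplementary table of the study pairs with names. The names follow *Saccharomyces cerevisiae*, the roles given here are known from that yeast, and the pairing could not be checked further.

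GQ67_01670 differed most by p. It had 129.6 to 232 CPM (median 158) in rG-CSF cultures and 33.4 to 72.2 CPM (median 48.2) in rhGH cultures. Every rG-CSF culture lay above every rhGH culture. The clone means were 145, 216 and 162 CPM in rG-CSF clones 13, 14 and 16, against 47.6, 52.1 and 48.3 CPM in rhGH clones 11, 12 and 13, so the rG-CSF clones varied more among themselves. The log2 fold change was 1.72 ± 0.16 (SE, edgeR adjusted p = 9.29e-04), or 3.29-fold. No gene table used here gives GQ67_01670 a function.

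GQ67_03572 had 119 to 224 CPM (median 150.04) in rG-CSF cultures and 41.3 to 80.5 CPM (median 60.2) in rhGH cultures. It too was higher in each rG-CSF culture than in any rhGH culture, with a log2 fold change of 1.22 ± 0.13 (SE, edgeR adjusted p = 0.00209). Clone 13 was the lowest rG-CSF clone for GQ67_03572, at 131 CPM, beside 162 CPM in clone 14 and 182 CPM in clone 16. The rhGH clones 11, 12 and 13 had 66.0, 61.9 and 59.6 CPM.

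GQ67_03302 had 312 to 437 CPM (median 359.8) in rG-CSF cultures and 565 to 920.2 CPM (median 659) in rhGH cultures. All 9 rG-CSF cultures lay below all 9 rhGH cultures, with a log2 fold change of -1.01 ± 0.13 (SE, edgeR adjusted p = 0.00741). The genes with the 2 identifiers that follow GQ67_03302 fell as well, by 1.04 and 0.80 on the log2 scale (edgeR adjusted p = 0.00942 and 0.0263). This was part of a wider feature of the called genes. Of 4614 pairs of consecutive identifiers tested, both were called in 27, and in 26 of these the direction was the same. Among the 185 called genes whose next identifier was tested, the next was also called in 14.6%, beside 4.09% of all genes tested. The files do not state that identifiers follow genome order, and reads of genes that overlap at their 3′ ends cannot be told apart from reads of the neighbour.

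GQ67_01029 had 253 to 330.2 CPM (median 297) in rG-CSF cultures and 384 to 700.4 CPM (median 596) in rhGH cultures. The groups did not overlap, and the log2 fold change was -0.97 ± 0.13 (SE, edgeR adjusted p = 0.00741). The rG-CSF clones 13, 14 and 16 were close together, at 309, 292 and 288 CPM, while rhGH clones 11, 12 and 13 had 567, 501 and 610.3 CPM. For each of these 4 identifiers the direction held in the 19 alternative fits and the call in 18, the exception being the fit of all 24 clones. The 4 were chosen for small p and separated cultures in the same data, so this outcome was largely built into the choice.

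Of the 8 genes with names, 3 are named for proteins that handle metals, and none of the 3 passed the test. CTR1, named for the high-affinity copper transporter, had 674 to 1106 CPM (median 1006) in rG-CSF cultures and 1030 to 1947 CPM (median 1377) in rhGH cultures. The clone means of CTR1 were 716, 1068 and 1011 CPM in rG-CSF clones 13, 14 and 16, against 1469, 1862 and 1121 CPM in rhGH clones 11, 12 and 13. Clones did not overlap but cultures did, and the log2 fold change was -0.79 ± 0.20 (SE, edgeR adjusted p = 0.0516). FRE1, named for a ferric and cupric reductase that supplies reduced metal to such transporters, had 254 to 444 CPM (median 383) in rG-CSF cultures and 388 to 581 CPM (median 444) in rhGH cultures. Its log2 fold change was -0.57 ± 0.17 (SE, edgeR adjusted p = 0.0921). For both genes rG-CSF clone 13 was the lowest of the 6 clones, with 261 CPM for FRE1 beside 418 CPM in clone 14 and 381 CPM in clone 16. CTR1 was past the threshold in 11 of the 19 alternative fits and FRE1 in 5. The 5 for FRE1 were DESeq2 with and without shrinkage, which share a p, and fits on single cultures rather than clones. All 5 were also among the 11 for CTR1, and the alternatives reuse the same libraries. With 1 clone left out at a time, the edgeR adjusted p of CTR1 was 0.0331 without rhGH clone 13 and 0.0667 to 0.205 in the other 5 fits. Over the 19 fits, the lowest was 1.11e-04 (edgeR, cultures as replicates) and the highest 0.563 (edgeR, all 24 clones in 1 fit). ZPS1, named for a cell wall protein made when zinc is scarce, had 12.9 to 23.9 CPM (median 19.2) in rG-CSF cultures and 8.99 to 18.2 CPM (median 12.3) in rhGH cultures, with a log2 fold change of 0.49 ± 0.24 (SE, edgeR adjusted p = 0.317).

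The cell surface gene FLO11-BSC1 was the 1 called gene of the 8 with names. In *S. cerevisiae*, FLO11 encodes a flocculin that lets cells adhere to surfaces and to each other. FLO11-BSC1 had 73.6 to 132 CPM (median 92.2) in rG-CSF cultures and 81.7 to 188 CPM (median 163) in rhGH cultures. Its clone means were 93.4, 83.4 and 121 CPM in rG-CSF clones 13, 14 and 16, against 161, 156 and 137 CPM in rhGH clones 11, 12 and 13. The clones did not overlap, whereas 1 culture each of rhGH clones 12 and 13 fell among the rG-CSF values. These were 12B (98.5 CPM) and 13C (81.7 CPM), the cultures with the highest scores on the second component. Without both, a setting chosen after seeing the data, the log2 fold change of FLO11-BSC1 was -0.90. With all cultures the log2 fold change was -0.66 ± 0.14 (SE, edgeR adjusted p = 0.0292), and the call was lost in 5 of 19 alternative fits. Over the 19, the lowest adjusted p was 5.72e-04 (edgeR, cultures as replicates) and the highest 0.784 (edgeR, all 24 clones in 1 fit). The call was lost without rG-CSF clone 14 (edgeR adjusted p = 0.0934), without rhGH clone 11 (0.1298) and without rhGH clone 12 (0.0863). Flocculin genes are repetitive and belong to a family, so the division of reads among its members is uncertain.

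The remaining named genes did not pass the test. NIT1, named for a nitrilase, had 18.3 to 49.7 CPM (median 28.7) in rG-CSF cultures and 12.7 to 28.6 CPM (median 20.5) in rhGH cultures. Its clone means were 30.6, 34.8 and 29.0 CPM in rG-CSF clones 13, 14 and 16, against 19.6, 21.5 and 17.1 CPM in rhGH clones 11, 12 and 13. Clones did not overlap but cultures did, and the log2 fold change was 0.65 ± 0.19 (SE, edgeR adjusted p = 0.0804). PDR12, named for an exporter of weak organic acids, had 1512 to 2773 CPM (median 2087) in rG-CSF cultures and 1906 to 3376 CPM (median 2264) in rhGH cultures, with -0.38 ± 0.16 on the same scale (SE, edgeR adjusted p = 0.221). The uncharacterized membrane protein gene YDL218W had 286 to 686 CPM (median 414) in rG-CSF cultures and 380 to 670.2 CPM (median 530.03) in rhGH cultures. Its clones differed more within a product than between products, from 339 CPM in clone 14 to 657 CPM in clone 13 of rG-CSF, and the log2 fold change was -0.20 ± 0.23 (SE, edgeR adjusted p = 0.711). Leaving out 1 clone at a time moved it between -0.60, without rG-CSF clone 13 (edgeR adjusted p = 0.0501), and -0.02, without rG-CSF clone 14. YFL040W, which resembles sugar transporters, had 275 to 658 CPM (median 358) in rG-CSF cultures and 160.2 to 459 CPM (median 335) in rhGH cultures, with a log2 fold change of 0.23 ± 0.22 (SE, edgeR adjusted p = 0.643), which lay between 0.01 without rG-CSF clone 14 and 0.54 without rhGH clone 11.

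**Figure D4:**
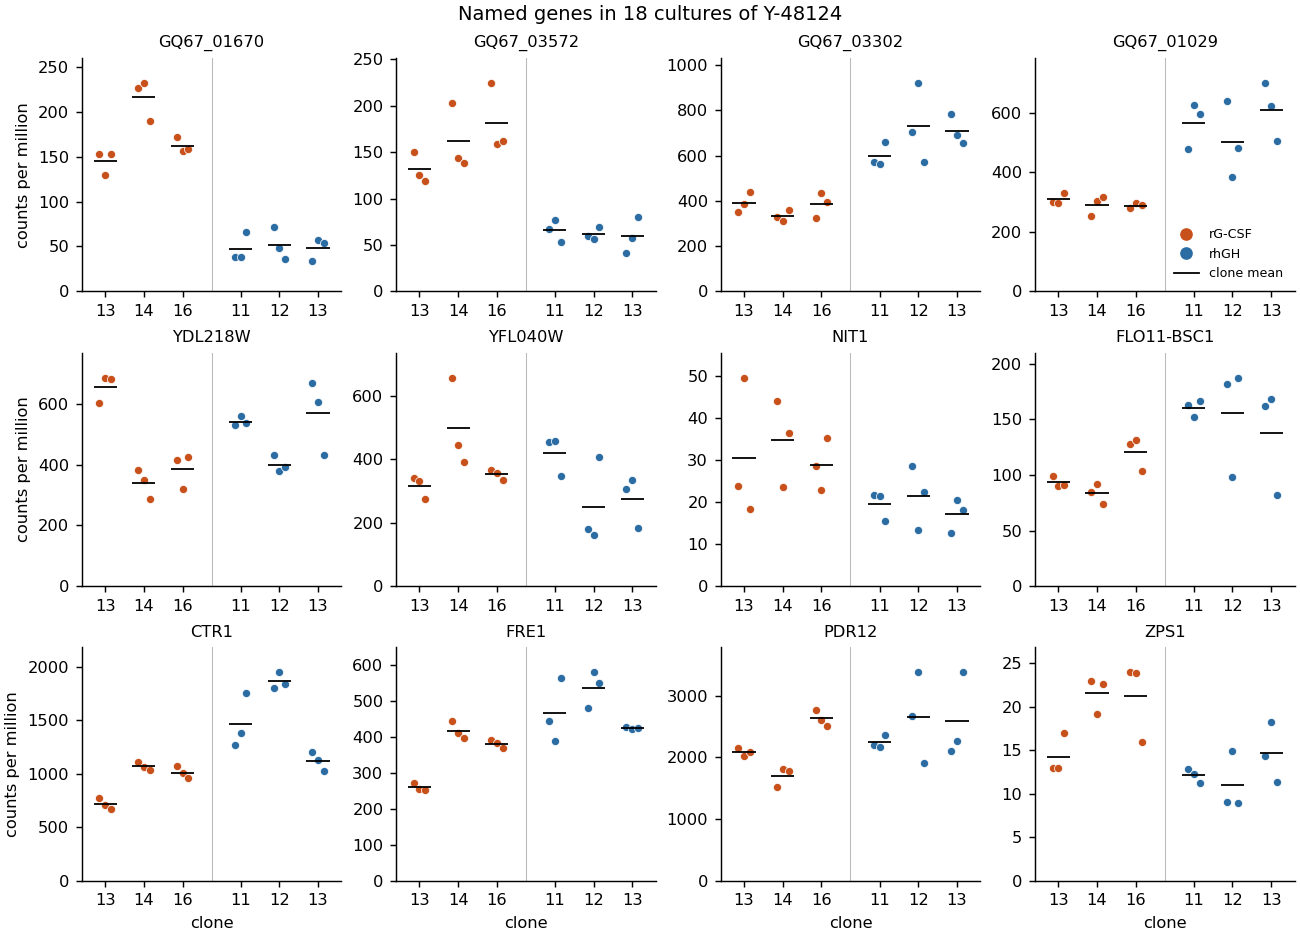
CPM of the 12 named genes in each of the 18 cultures of Y-48124, by clone, with rG-CSF clones on the left and rhGH clones on the right of each panel. Points are cultures and black lines are clone means. The 4 identifiers in the top row do not overlap between products. FLO11-BSC1, CTR1 and FRE1, which are lower in rG-CSF clones, and NIT1, which is higher, have separated clone means and overlapping cultures.

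The called genes with the largest fitted changes had few reads. The gene with the largest fitted rise had 14, 15 and 16 counts in rG-CSF clones 13, 14 and 16 and 0 counts in each rhGH clone, and was seen in 7 of the 9 rG-CSF cultures. Against a floor of 3 counts over the rhGH clones together, it was at least 9.86-fold higher in rG-CSF clones. The gene with the largest fitted fall had 0, 9 and 0 counts in rG-CSF clones 13, 14 and 16, against 116, 52 and 35 counts in rhGH clones 11, 12 and 13. It was read in 2 of 9 rG-CSF cultures and 7 of 9 rhGH cultures.

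Whether the product difference of Y-48124 was shared by the other strains was examined with the same fit within each strain. These are related strains, since the paper lists Y-48124 as a banked X-33 and both as revertants of GS115. The library labelled X-33 rhGH 12A lay at 0.84 on a scale where the other X-33 rhGH libraries average 0 and the Y-11430 rhGH libraries average 1, beyond the -0.21 to 0.15 of those X-33 libraries, so X-33 values are given with and without it. edgeR called 20 genes in X-33 (855 at an unadjusted p under 0.05), 20 in Y-11430 (870) and 0 in GS115 (132). Without the library labelled 12A, 80 genes were called in X-33 (964), among them the 20. The spread between clones differed as well, with a common biological coefficient of variation of 0.148 in Y-48124, 0.182 in X-33, 0.316 in Y-11430 and 0.274 in GS115. Of the genes called in Y-48124, 192 of 201 had the same sign in X-33 (95.5%, beside 66.8% of all genes tested, and 190 of 200 genes beside 66.5% without the library labelled 12A), 162 of 199 in Y-11430 (81.4%, beside 61.8%) and 132 of 200 in GS115 (66.0%, beside 52.0%). The median log2 fold change of the genes that rose in Y-48124 was 0.49 in X-33 (0.54 without that library), 0.43 in Y-11430 and 0.13 in GS115. For the genes that fell it was -0.63 in X-33 (-0.68 without that library), -0.63 in Y-11430 and -0.10 in GS115. Since the genes were chosen for their change in Y-48124, a smaller median elsewhere is built into the choice. Of the 201 genes, 11 were also called in X-33 (28 without that library) and 3 in Y-11430, all with the same sign.

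Across all genes tested in both, Pearson's r between the fold changes was 0.49 for X-33 (4902 genes, and 0.49 over 4888 genes without the library labelled 12A), 0.36 for Y-11430 (4906 genes) and 0.07 for GS115 (4915 genes), where genes are not independent replicates. GQ67_01670 had a log2 fold change of 1.57 in X-33 (edgeR adjusted p = 0.0286, and 1.91 with 0.00400 without that library), 0.41 in Y-11430 and 0.11 in GS115. GQ67_03302 had -1.01 in X-33, -0.98 in Y-11430 and -0.33 in GS115, and did not pass the test in any of them, but passed it in X-33 without that library, with -1.12 (edgeR adjusted p = 0.0421). Libraries of rG-CSF were also deeper than those of rhGH by median in each strain. The medians were 1356791 against 747434 counts in X-33, 1518658 against 1148383 in Y-11430 and 2807967 against 2653242 in GS115. The part of depth in the shared signs was not tested. In GS115 the deepest rG-CSF library held 32980065 counts, and clone sums weigh cultures by their depth. The paper also reports poor growth of all GS115 producers. The part of either in the GS115 values was not tested.

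The difference between strains itself was tested as an interaction over the 24 clones. The other 3 strains include X-33 and GS115, which are close relatives of Y-48124. The product difference of Y-48124 departed from the mean of the other 3 strains in 0 of 5043 genes (0%) by edgeR, with 232 at an unadjusted p under 0.05 and a smallest adjusted p of 0.465. Set against single strains, edgeR called 0 genes for GS115 (251 at an unadjusted p under 0.05), 12 for Y-11430 (583) and 0 for X-33 (128). No gene was thus shown to respond to the product in Y-48124 differently from the mean of the other strains. However, a fit of the same 24 clones also called 0 genes for the product difference of Y-48124 itself. The 0 calls of the interaction therefore do not show that the strains respond alike. The count against the mean was also 0 when X-33 rhGH 12A was left out.

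**Figure D5:**
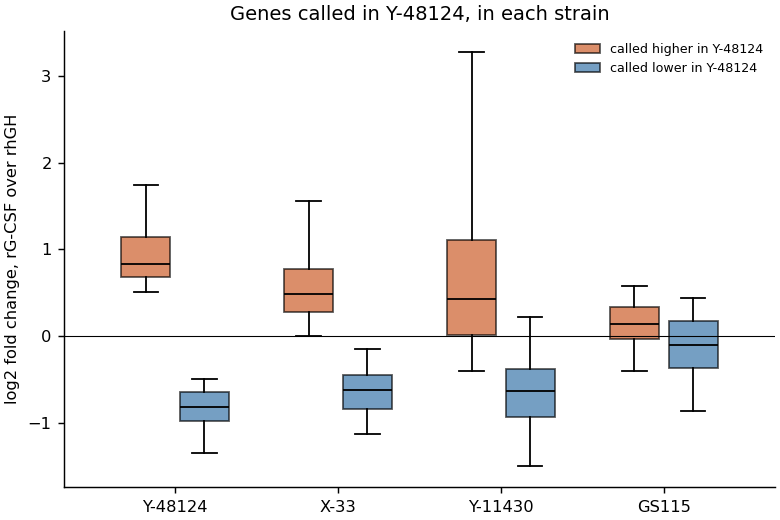
Log2 fold change, rG-CSF over rhGH, of the genes called in Y-48124, within Y-48124 and within each other strain, for genes called higher (orange) and lower (blue) in Y-48124. Boxes span the 25th to 75th percentiles with the median as a line, and whiskers reach the 5th and 95th percentiles. Medians of the higher genes are 0.83 in Y-48124, 0.49 in X-33, 0.43 in Y-11430 and 0.13 in GS115.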

How the data were processed

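Per the labels and the paper's methods, the authors made 3′ digital gene expression libraries, sequenced 17 and 46 bp ends, and quantified them with Salmon 0.9.1 on 1 transcript per gene, extended by 100 nt at the 3′ end, plus the transgenes. The submitters' processing notes also name bedtools 2.26.0. The genome build is not given in the sources used here, and neither is any merging of reads by molecular identifier. The deposited counts are whole numbers without normalization, and the deposited log2 values are log2(TPM + 1).

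Of 5120 genes, 4917 passed filterByExpr (minimum count 10) and 203 did not. edgeR 4.0.16 (R 4.3.3) was used with TMM normalization, 6 clone sums and Benjamini-Hochberg adjustment over all genes tested. Fitted fold changes include the TMM factors of the clone sums, whereas CPM values use the total of the gene rows. Computed on single libraries, TMM factors were 0.997 to 1.11 in rG-CSF and 0.916 to 0.994 in rhGH. The chi-square per degree of freedom sets differences between cultures against counting error only, and the floor of 3 counts covers counting error only. Named genes were those with names in the study, and the 2 rising and 2 falling called genes of smallest p whose cultures did not overlap. DESeq2 1.42.0, limma 3.58.1, cultures as replicates, thinning and left-out clones were alternatives. The genes, lists and tests were chosen with earlier results of these data known. The labels call clones and cultures separate samples, and p-values measure the spread between clones. Figures used Matplotlib 3.10.9.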

Additional observations from a re-analysis of the deposited data

Results flagged for a closer look

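YFL040W in culture 14A of rG-CSF stood apart from the other cultures of its product. Its level was 658 CPM, against 275 to 446 CPM in the other 8 rG-CSF cultures. It was the 1 flag among 32 groups of values examined, where chance flags about 1 group in 20.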

How the results depend on the processing

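The 201 called genes became 684 with cultures as replicates (196 of the 201 among them), 447 in limma-voom with the clone as a random block and 0 with all 24 clones in 1 fit, which has a wider spread between clones. Leaving out 1 clone at a time gave 40 to 285 calls. A required change over 1 on the log2 scale left 63. The culture letters do not pair the cultures: deviations of same-letter cultures of different clones had r of -0.29 to 0.21 (median -0.01, 6 of 45 pairs over 0.1). With the replicate block over letters, 620 genes were called. The other settings gave 175 to 274 calls, the highest in DESeq2 (190 shared), and 258 without rhGH cultures 12B and 13C (170 shared), a setting chosen after seeing the data, as was leaving out the library labelled X-33 rhGH 12A, which gave 80 calls in X-33 in place of 20. The interaction with the mean of the other strains had 39 calls with cultures as replicates and 0 in the other alternatives run. For the 12 named genes, 228 alternative values held 0 reversals, 202 on the same side of the threshold, 17 that passed it and 9 that lost it. These values reuse the same libraries, and some come from fits on single cultures rather than clones. With 3 clones per product, the exact permutation test of a single value cannot go below 0.1. Depth was lowest in rhGH cultures (438586 counts at least), and 203 genes were too low to test.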

Other observations

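Cultures 12B and 13C of rhGH, which belong to different clones, deviated from their clones in the same direction across genes, with r = 0.45, the highest of 135 pairs of cultures from different clones. Of the genes called in Y-48124, 116 of 199 tested in all 4 strains had the same sign in each (58.3%), beside 1412 of 4894 of all genes (28.9%), and 4 had the opposite sign in all 3 other strains.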
